A study of Oryza sativa with 6 samples.

Results

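Photorespiration salvages the carbon that a leaf loses when Rubisco takes up oxygen in place of carbon dioxide, and 10 rice loci for its steps in the peroxisome and the mitochondrion are described here. They were taken by locus ID, 10 of the 57839 loci in the count table: 3 loci of glycolate oxidase, 1 of serine-glyoxylate aminotransferase (SGAT), 1 of hydroxypyruvate reductase (HPR1), 2 of the P subunit of glycine decarboxylase (GDC), 1 each of its H and T subunits, and 1 of serine hydroxymethyltransferase (SHMT). The enzyme names came with the list of members, since the deposited tables pair no locus with a name, and 0 of the 10 IDs were matched in the gene table used here.

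Leaves of the mutant line osatg5-1 were compared with leaves of wild-type plants (WT), 3 poly(A) RNA-seq libraries each. All plants grew in a paddy field under natural long days, and mature leaves were frozen at tillering, the stage at which side shoots form. The mutant is named for ATG5, a core protein of autophagy, through which cells deliver their own constituents, peroxisomes and mitochondria among them, to the vacuole for breakdown. The labels give neither the lesion of the allele, nor the cultivar, nor whether replicates were separate plants, so the p-values rest on the spread between 3 libraries per genotype, and that spread may be technical. OsATG5 and markers of leaf cell types were not analysed here, since no table used here, nor the list of members, ties a locus ID to them.

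In the peroxisome, glycolate oxidase turns glycolate into glyoxylate and releases hydrogen peroxide, SGAT transfers an amino group from serine to glyoxylate and so yields glycine and hydroxypyruvate, and HPR1 reduces hydroxypyruvate to glycerate. In the mitochondrion, GDC splits glycine into carbon dioxide, ammonia and a carbon unit bound to tetrahydrofolate, and SHMT joins that unit to another glycine to give serine. Within GDC the P subunit carries out the decarboxylation, the lipoyl-bearing H subunit shuttles the intermediate between the other subunits, and the T subunit releases ammonia and hands the carbon unit to tetrahydrofolate. The enzymes are abundant in green leaves of plants such as rice that fix carbon by the C3 route, which lose much carbon to oxygenation.

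The libraries held 31296258, 36280885 and 39351357 counts in osatg5-1, and 31628507, 31677943 and 30927816 in WT. The 10 members together took 2.14%, 2.27% and 2.23% of the counts in osatg5-1 libraries, and 2.24%, 2.27% and 2.16% in WT libraries. These shares overlapped between the genotypes. Reads of bulk leaves cannot tell a change in the number of cells of a type from a change in the RNA of each cell.

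Transcripts for 9 of the 10 members were among the abundant ones of the leaf, and 1 of the 10 was called as changed in osatg5-1. The H subunit of GDC rose 1.22-fold, and no other member was called. With edgeR's quasi-likelihood test over 23074 loci (adjusted p under 0.05), 16.4% of all tested loci were called, 8.23% as higher and 8.21% as lower in osatg5-1. Among the 1695 tested loci of at least 100 CPM on average (counts scaled to library size, after TMM correction), where small changes are more readily called, the share was 27.4%, with 11.3% higher and 16.1% lower. All 10 members passed the filter on low counts, and 9 of them lay at 100 CPM or more. A called share of 1 in 10 members is below both backgrounds, on a count too small to read further.

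Changes of the members were small. Their median log2 fold change, osatg5-1 over WT, was -0.05, beside 0.00162 over all tested loci and -0.03 over loci of at least 100 CPM. The median size of the log2 change, regardless of sign, was 0.14 for the members, 0.20 for all tested loci and 0.14 for loci of at least 100 CPM. The 95% interval of the fold change lay inside 1.5-fold in either direction for 9 of the 10 members, the exception being the rarely read glycolate oxidase locus LOC_Os04g53210. Before adjustment, edgeR gave 4 of the 10 members, the H subunit included, a p under 0.05, beside 30.4% of all tested loci and 44.1% of those of at least 100 CPM.

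**Figure D1:**
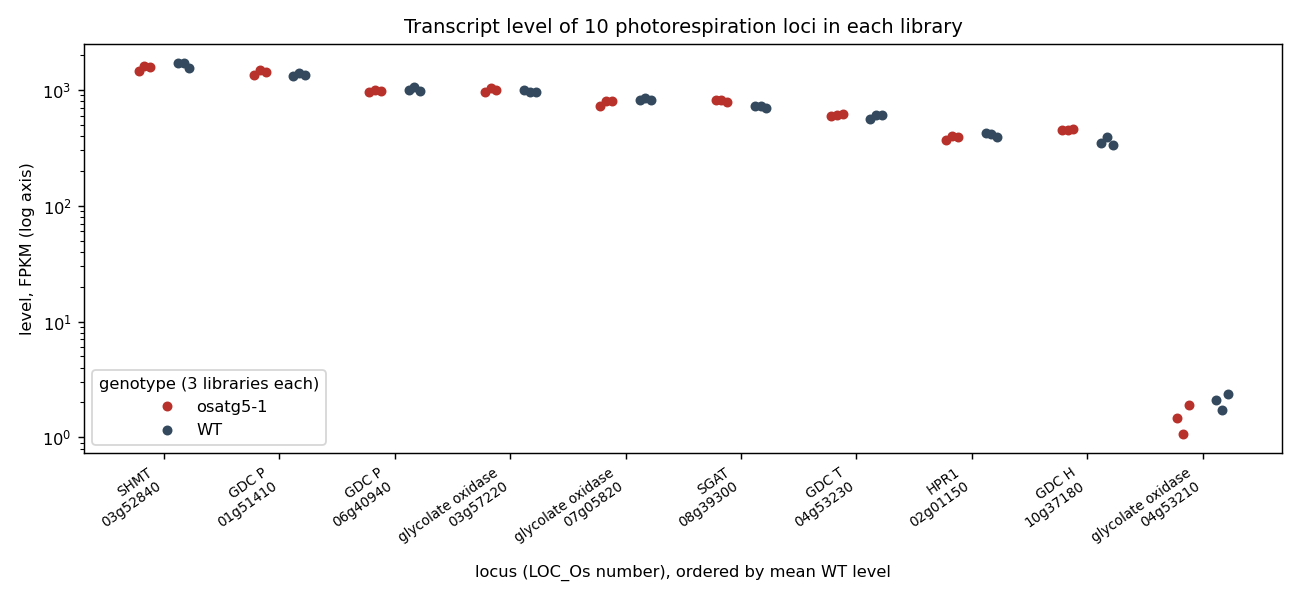
Level of each member in FPKM (fragments per kilobase of transcript, scaled to library depth, on a log axis) in every library, 3 dots for osatg5-1 left of 3 dots for WT, ordered by the mean WT level. SHMT averaged 1541 FPKM in osatg5-1 and 1659 FPKM in WT, while the glycolate oxidase locus LOC_Os04g53210 stayed between 1.06 and 2.38 FPKM in all libraries.

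Per unit of transcript length, SHMT was the highest member and glycolate oxidase LOC_Os04g53210 the lowest in both genotypes. In osatg5-1 the order of mean FPKM was SHMT (1541), GDC P LOC_Os01g51410 (1421), glycolate oxidase LOC_Os03g57220 (994), GDC P LOC_Os06g40940 (981), SGAT (807), glycolate oxidase LOC_Os07g05820 (779), GDC T (607), GDC H (452), HPR1 (387) and glycolate oxidase LOC_Os04g53210 (1.48). In that genotype the ranges of LOC_Os03g57220 and LOC_Os06g40940 overlapped, as did those of SGAT and LOC_Os07g05820, and neither pair kept 1 order in all 3 libraries. The ranges of SHMT and LOC_Os01g51410 overlapped as well, although SHMT was the higher in each library, at 1445, 1607 and 1571 FPKM against 1351, 1475 and 1436 FPKM.

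In WT leaves the order was SHMT (1659), LOC_Os01g51410 (1359), LOC_Os06g40940 (1008), LOC_Os03g57220 (972), LOC_Os07g05820 (832), SGAT (717), GDC T (593), HPR1 (413), GDC H (357) and LOC_Os04g53210 (2.06 FPKM). Of these neighbours, LOC_Os06g40940 and LOC_Os03g57220 overlapped. The H subunit stood above HPR1 in each osatg5-1 library and below it in each WT library: its lowest mutant value was 447 FPKM against a highest HPR1 value of 397, and its highest WT value was 389 FPKM against a lowest HPR1 value of 392. SGAT and LOC_Os07g05820 also traded places by mean, although their osatg5-1 values overlapped.

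Glycolate oxidase opens the peroxisomal part of the pathway. Among its 3 listed loci, transcripts came almost entirely from those on chromosomes 3 and 7. Any other glycolate oxidase loci were left out of this comparison. LOC_Os03g57220, on chromosome 3, was at 2064, 2255 and 2154 CPM in osatg5-1 libraries, against 2260.3, 2136 and 2155 CPM in WT libraries. The genotypes overlapped. Its log2 fold change was -0.02 ± 0.06 (SE; edgeR adjusted p = 0.89), and the 95% interval of the fold ran from 0.896 to 1.09. The sign of so small a value turned with the scaling: it was 0.02 with library-size scaling, and mean FPKM was 994 ± 44.2 in osatg5-1 and 972 ± 31.8 in WT (SD, n = 3 each).

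LOC_Os07g05820, on chromosome 7, was at 1440.4, 1595 and 1585 CPM in osatg5-1 libraries, against 1686, 1730.5 and 1692 CPM in WT libraries. Each mutant library lay below each WT library, and osatg5-1 replicate 1 was the lowest. The log2 fold change of -0.14 ± 0.06 (SE) was not called (edgeR adjusted p = 0.161; fold 0.904, 95% interval 0.819 to 0.999).

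LOC_Os04g53210, on chromosome 4, was barely read, with 80, 67 and 128 counts in osatg5-1 libraries and 116, 95 and 129 counts in WT libraries. These are 2.51, 1.83 and 3.22 CPM in osatg5-1, against 3.68, 3.04 and 4.26 CPM in WT. The genotypes overlapped, since osatg5-1 replicate 3 exceeded WT replicate 2. Its log2 fold change was -0.54 ± 0.24 (SE; edgeR adjusted p = 0.160), with a 95% interval of the fold from 0.478 to 0.996, the widest of the members. The size of this value rests on single libraries: it was -0.34 without osatg5-1 replicate 2 and -0.75 without osatg5-1 replicate 3, and -0.31 on the log2(FPKM + 1) scale, which shrinks changes at low levels.

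The loci of an enzyme were also set against each other within each library, where the scaling between libraries cancels. LOC_Os03g57220 made up 56.6%, 56.3% and 55.3% of the summed glycolate oxidase FPKM in osatg5-1, against 54.9%, 52.9% and 53.6% in WT. The shares did not overlap, by a margin of 55.3% to 54.9%, and they averaged 56.0% ± 0.691 in osatg5-1 and 53.8% ± 1.03 in WT (SD, n = 3 each). LOC_Os04g53210 gave 0.0575% to 0.106% of the sum in osatg5-1 and 0.0953% to 0.134% in WT. The summed FPKM of the 3 loci averaged 1775 ± 84.2 in osatg5-1 and 1806 ± 30.9 in WT and overlapped. Such shares, and the ratios further on, are descriptions without a test. Reads of similar glycolate oxidase copies may have been split between the loci, because the counting rule is not given in the sources used here.

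SGAT, which draws on the glyoxylate made by glycolate oxidase, was higher in every mutant library than in any WT library. LOC_Os08g39300, on chromosome 8, was at 1873, 1868 and 1807 CPM in osatg5-1 libraries, against 1709, 1716 and 1655 CPM in WT libraries. The 3 libraries of a genotype lay close together, with a coefficient of variation of 1.98% in osatg5-1 and 1.96% in WT. Its log2 fold change of 0.13 ± 0.06 (SE) was nevertheless not called (edgeR adjusted p = 0.176; fold 1.09, 95% interval 0.998 to 1.20). In FPKM the means were 807 ± 18.8 in osatg5-1 and 717 ± 14.1 in WT (SD, n = 3 each).

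HPR1, the enzyme that uses the hydroxypyruvate formed by SGAT, had lower CPM in every mutant library than in any WT library. LOC_Os02g01150, on chromosome 2, was at 1204, 1295 and 1292 CPM in osatg5-1 libraries, against 1444, 1411 and 1334 CPM in WT libraries. The genotypes did not overlap in CPM but did in FPKM, where the means were 387 ± 15.2 in osatg5-1 and 413 ± 19.1 in WT (SD, n = 3 each). The log2 fold change was -0.14 ± 0.06 (SE; edgeR adjusted p = 0.162; fold 0.905, 95% interval 0.819 to 0.999).

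The ratio of SGAT to HPR1 in FPKM was accordingly 2.22, 2.05 and 1.99 in osatg5-1 libraries, against 1.70, 1.73 and 1.79 in WT libraries. Every mutant ratio exceeded every WT ratio. The ratio of the summed glycolate oxidase loci to SGAT was 2.05, 2.27 and 2.28 in osatg5-1, against 2.53, 2.49 and 2.53 in WT, again without overlap. These ratios pair enzymes of adjoining steps and were chosen after the member values had been seen. Both hold the SGAT level, so neither is a finding apart from the differences of the loci themselves, none of which was called. How often ratios of other loci do not overlap was not examined.

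**Figure D2:**
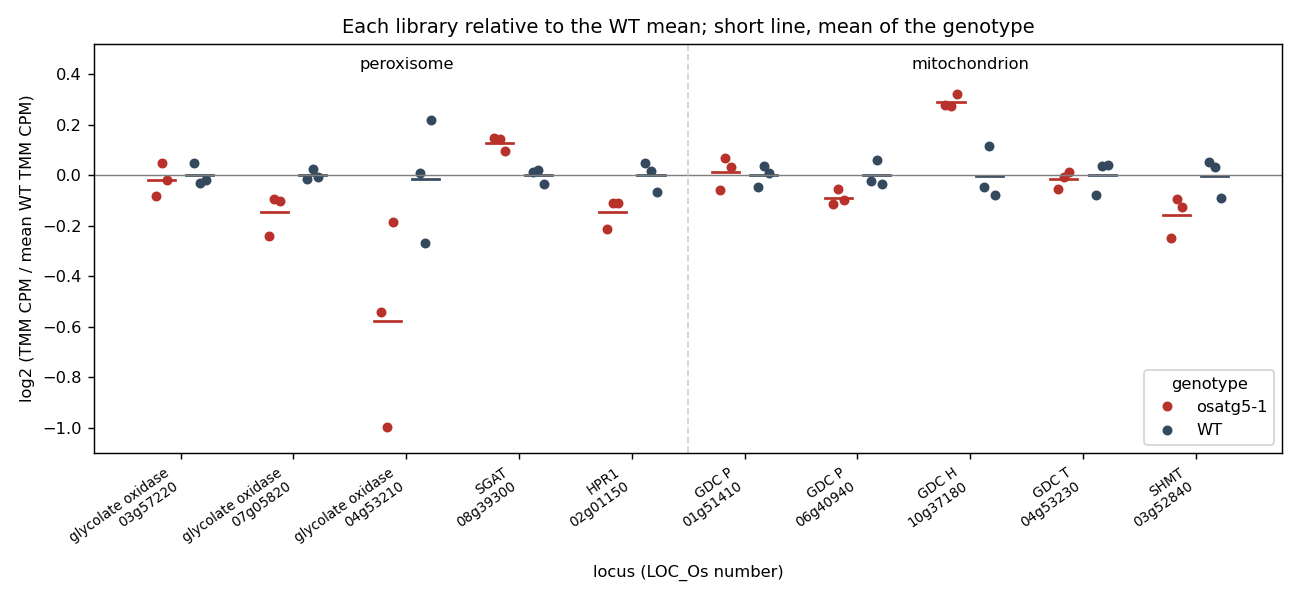
TMM CPM of each library relative to the WT mean of the locus (log2), with dots for libraries and a short line for the mean of a genotype, osatg5-1 left of WT. The 3 osatg5-1 libraries lay above all WT libraries at SGAT and GDC H and below them at glycolate oxidase LOC_Os07g05820, HPR1, GDC P LOC_Os06g40940 and SHMT.

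Of the mitochondrial enzymes, the H subunit of GDC was the member that passed the test. LOC_Os10g37180, on chromosome 10, was at 465, 464 and 479.9 CPM in osatg5-1 libraries, against 372, 416 and 363 CPM in WT libraries. Each mutant library lay above each WT library, and the mutant libraries were the more alike, with a coefficient of variation of 1.92% in osatg5-1 and 7.41% in WT. The log2 fold change was 0.29 ± 0.07 (SE; edgeR adjusted p = 0.0178), a rise of 1.22-fold with a 95% interval from 1.10 to 1.36. In FPKM the H subunit averaged 452 ± 7.80 in osatg5-1 and 357 ± 28.3 in WT (SD, n = 3 each). The call did not hold without osatg5-1 replicate 3 (log2 fold change 0.28, edgeR adjusted p = 0.0641) or without WT replicate 1 (0.27, edgeR adjusted p = 0.052), and a rise beyond 1.5-fold was not called. Over 17 alternative settings the adjusted p ran from 0.000895 (DESeq2) to 1 (edgeR, against a 1.5-fold change), and 14 kept the call. The H subunit had the shortest transcript of the members, 1055 bases as implied by counts and FPKM. With each library's trend over transcript length removed, its log2 fold change was 0.26 (edgeR adjusted p = 0.0312). That was its lowest value among the settings that kept all 6 libraries.

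The P subunit was read from a locus on chromosome 1 and another on chromosome 6. LOC_Os01g51410 was at 5852, 6395 and 6241 CPM in osatg5-1 libraries, against 5909.5, 6261 and 6136 CPM in WT libraries, so that the WT values lay inside the range of the mutant values. Its log2 fold change was 0.01 ± 0.06 (SE; edgeR adjusted p = 0.913; fold 1.01, 95% interval 0.915 to 1.11). It ranked 5 among all tested loci by mean CPM, a scale on which long transcripts rank higher.

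LOC_Os06g40940 was at 3812, 3969.6 and 3857 CPM in osatg5-1 libraries, against 4056, 4296 and 4021 CPM in WT libraries. The mutant libraries lay below the WT libraries, but the log2 fold change of -0.09 ± 0.06 (SE) was not called (edgeR adjusted p = 0.373; fold 0.941, 95% interval 0.856 to 1.03). In FPKM the genotypes overlapped, at 981 ± 21.0 in osatg5-1 and 1008 ± 41.8 in WT (SD, n = 3 each).

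The chromosome 1 locus gave 58.3%, 59.5% and 59.6% of the P-subunit FPKM in osatg5-1, against 57.1%, 57.1% and 58.2% in WT. The lowest mutant share thus lay just above the highest WT share. Summed over both loci, P-subunit levels were 2402 ± 82.7 FPKM in osatg5-1 and 2367 ± 77.9 FPKM in WT (SD, n = 3 each) and overlapped. Loci for 1 subunit can be alike in sequence, and how reads that match both were counted is not given in the sources used here.

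The T subunit, LOC_Os04g53230 on chromosome 4, was at 1013, 1045 and 1059 CPM in osatg5-1 libraries, against 996, 1077 and 1079.8 CPM in WT libraries. The genotypes overlapped, and the log2 fold change was -0.02 ± 0.06 (SE; edgeR adjusted p = 0.895; fold 0.989, 95% interval 0.898 to 1.09). Its sign also turned with the scaling, to 0.02 with library-size scaling.

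The level of H was also set against the P and T subunits of the same complex, whose L subunit is not among the members. The FPKM of the P loci was 5.16, 5.55 and 5.23 times that of H in osatg5-1 libraries, against 6.67, 6.31 and 6.95 times in WT libraries. For T the ratio to H was 1.32, 1.37 and 1.34 in osatg5-1, against 1.63, 1.57 and 1.80 in WT. Neither ratio overlapped between the genotypes. Each has the H level as its divisor, so neither is a finding apart from the rise of H. The ratio of P to T did overlap, at 3.96 ± 0.0891 in osatg5-1 and 3.99 ± 0.127 in WT (SD, n = 3 each).

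SHMT works with GDC in the mitochondrion and had the highest mean FPKM of the members. LOC_Os03g52840, on chromosome 3, was at 3279, 3648 and 3577 CPM in osatg5-1 libraries, against 4043, 3990.3 and 3665 CPM in WT libraries. The genotypes did not overlap in CPM, by a margin of 3648 to 3665, and they overlapped in FPKM. The log2 fold change of -0.16 ± 0.07 (SE) was not called (edgeR adjusted p = 0.167; fold 0.898, 95% interval 0.806 to 1.00). Its ratio to SGAT, the peroxisomal enzyme that uses serine, was 1.76, 1.97 and 2.00 in osatg5-1, against 2.37, 2.35 and 2.21 in WT, without overlap. This ratio shares the SGAT level with those given above and was likewise chosen after the member values had been seen. It is not a finding apart from the uncalled differences of SHMT and SGAT.

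**Figure D3:**
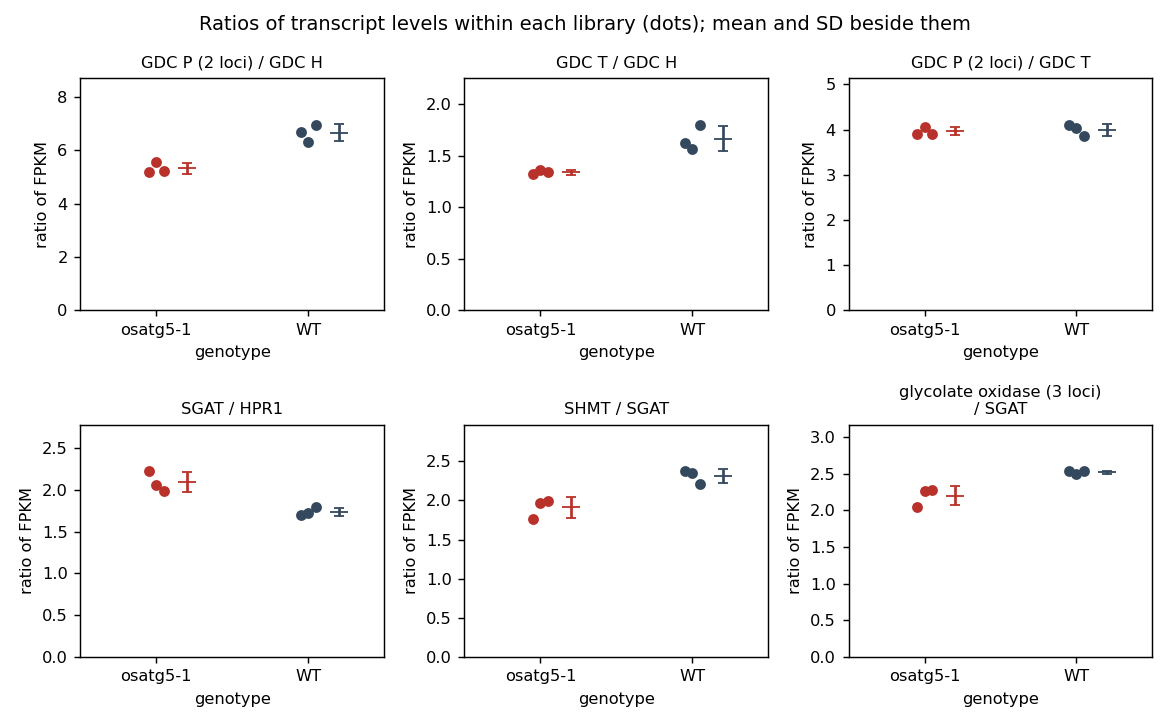
Ratios of FPKM between members within each library (dots), with the mean and SD (n = 3) beside them, osatg5-1 left of WT, on axes that start at 0. The ratios to GDC H, SHMT to SGAT and glycolate oxidase to SGAT were lower in every osatg5-1 library and SGAT to HPR1 was higher, whereas the ratio of P to T overlapped.

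In all, 6 of the 10 members did not overlap between the genotypes in CPM, 2 higher and 4 lower in osatg5-1. The same held for 35.4% of all tested loci and for 48.7% of loci of at least 100 CPM, so that 60% of 10 members is not far from the background. In FPKM, which the authors scaled differently, 3 members did not overlap: the H subunit and SGAT, higher in osatg5-1, and glycolate oxidase LOC_Os07g05820, lower. In that unit 35.7% of all tested loci and 46.5% of those of at least 100 CPM did not overlap, so 3 of 10 members is not above the background.

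As parts of the summed FPKM of the 10 members, the H subunit made up 5.68% ± 0.207 in osatg5-1 and 4.51% ± 0.249 in WT (SD, n = 3 each), and SGAT 10.1% ± 0.491 in osatg5-1 and 9.07% ± 0.119 in WT. SHMT took 19.3% ± 0.432 in osatg5-1 and 20.95% ± 0.796 in WT. The sum itself averaged 7971 ± 270.4 FPKM in osatg5-1 and 7912 ± 214 FPKM in WT, and the genotypes overlapped. The differences in share, osatg5-1 minus WT, ran from -1.63 percentage points for SHMT to 1.17 for the H subunit.

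**Figure D4:**
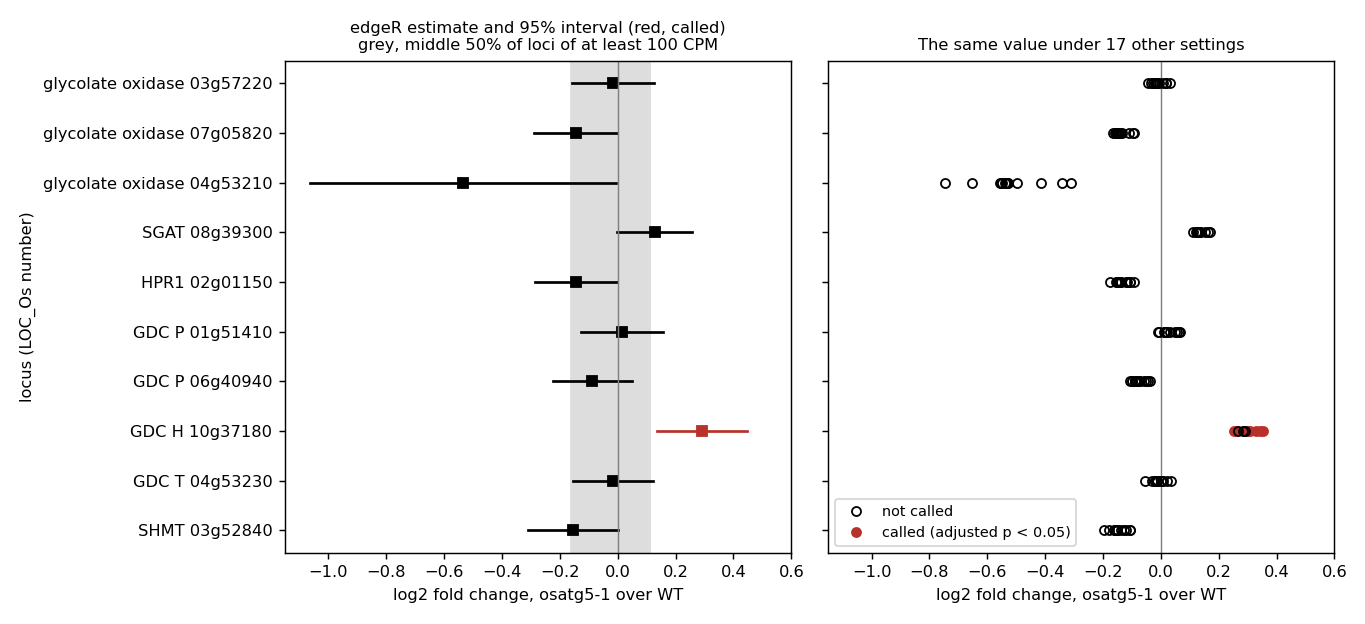
Left, log2 fold change of osatg5-1 over WT for each member with its 95% interval, beside the middle 50% of loci of at least 100 CPM in grey. Right, the same values under 17 other settings, filled where called; the H subunit stayed between 0.25 and 0.35, and no other member was called under any of them.

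Deviations of 1 library ran through several members. Replicate 1 of osatg5-1 was the lowest of the 6 libraries at both abundant glycolate oxidase loci, HPR1, both P loci and SHMT. At SGAT it was the highest, at 1873 CPM, and at GDC T, GDC H and LOC_Os04g53210 it was not the lowest. It also gave the most extreme ratios of SGAT to HPR1 (2.22), glycolate oxidase to SGAT (2.05) and SHMT to SGAT (1.76). The other osatg5-1 libraries also lay outside the WT values of these ratios. Averaged over the members, the log2 CPM of osatg5-1 replicate 1 lay 0.07 below the mean of the 6 libraries, or 0.06 below it over the 9 members of at least 100 CPM. Without that library, SHMT came to a log2 fold change of -0.11, HPR1 to -0.11 and LOC_Os07g05820 to -0.09, against -0.16, -0.14 and -0.14 with it.

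Loci beside the members were set next to them, because reads of overlapping or read-through neighbours can be counted for either. Of the 20 nearest tested loci by locus number, 1 on each side of a member, 2 were called higher and 2 lower, or 4 of 20 beside 16.4% of all tested loci. At the H subunit, LOC_Os10g37190 rose by 0.79 ± 0.18 on the log2 scale (SE; edgeR adjusted p = 0.0159), but at a mean of 5.05 CPM it held few reads beside the H subunit. LOC_Os10g37110, on the other side of the H subunit, was read more, at a mean of 64.3 CPM. Its log2 fold change of 0.25 ± 0.10 (SE) was not called (edgeR adjusted p = 0.127). Beside GDC P LOC_Os01g51410, LOC_Os01g51420 rose by 0.43 ± 0.10 and LOC_Os01g51400 fell by 0.61 ± 0.11 on the log2 scale (SE; edgeR adjusted p = 0.0153 and 0.00495), at means of 11.5 and 10.99 CPM. LOC_Os04g53214, the neighbour of the rarely read glycolate oxidase locus LOC_Os04g53210, fell by 0.39 ± 0.10 on the log2 scale (SE; edgeR adjusted p = 0.0241) at a mean of 41.7 CPM. A list of other pathway loci, not analysed as a set, names LOC_Os04g53214 as a further glycolate oxidase, but the gene table used here did not annotate it. The part of neighbouring reads in the members' values was not tested.

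Among 1686 other loci of at least 100 CPM, LOC_Os06g05060 and LOC_Os06g05860, both on chromosome 6, came closest to the mean profile of the 10 members, which leans on the rarely read LOC_Os04g53210. Their log2 CPM, each centred on its own mean, differed from that profile by a root mean square of 0.0171 and 0.0194 over the 6 libraries. Neither was called, with log2 fold changes of -0.06 and -0.06 (edgeR adjusted p = 0.526 and 0.516). Without LOC_Os04g53210 the profile changed sign in osatg5-1 replicate 2, to 0.03 with 9 members against -0.03 with 10, and in WT replicate 3, to -0.02 against 0.02. These loci then ranked 19 and 51 of 1686, so their closeness depends on that member. The profile of 10 members also averages loci that differ in direction and ran only from -0.07 to 0.04. Loci that vary little therefore come close to it.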

How the data were processed

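The authors deposited raw counts per locus, in 1 table with a column per library, and FPKM values in a file per library, as the file headers name them. HISAT2 and IRGSP-1.0 are named in the submitters' processing notes; the counter, annotation release and strand rule were not given in the sources used here. The kit was stranded, per the labels' protocols. Groups and replicate numbers came from the sample titles, and chromosomes from the locus IDs; no coordinates were used.

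Counts were tested with edgeR 4.0.16 in R 4.3.3 (filterByExpr, TMM, quasi-likelihood, genotype only, Benjamini-Hochberg over 23074 loci); a standard error is the log2 fold change divided by the square root of F. The fit was tested on simulated data with planted changes larger than any estimated for the members, so that test does not bear on calls of their size. Totals ran from 30927816 to 39351357 counts. FPKM was used to compare loci per length. All 10 members are named, with called neighbours by locus number, those of the H subunit, and the 2 closest profiles. Alternatives used limma 3.58.1 and DESeq2 1.42.0. The members, lists and tests were chosen with earlier results of these data known. A list of 16 other pathway loci was not analysed as a set, since 0 of its IDs were annotated. LOC_Os04g53214 is on that list and appears above only as a chromosome neighbour. Deviations from the genotype means correlated at 0.054, -0.0192 and 0.13 between libraries of the same number, so these were not treated as pairs.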

Additional observations from a re-analysis of the deposited data

How the results depend on the processing

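Upper-quartile scaling and the mean profile of 9 members were added after the data had been seen. The call of 1 member, the H subunit, held under 14 of 17 alternatives. With 1 library left out the count of called members was 0 to 1, being 0 without osatg5-1 replicate 3 and without WT replicate 1. Against a 1.5-fold change it was 0 members and 720 loci; that test passes only larger changes by construction. Otherwise 2567 to 4153 loci were called, beside 3793, and library-size scaling and limma on log2(FPKM + 1) raised the higher share of these from 50.1% to 58.4% and 61.5%. With the replicate block, 3765 loci and 1 member were called; the block changed no member's call, and the numbers share no documented origin.

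The signs of 3 uncalled members turned. Glycolate oxidase LOC_Os03g57220 came to 0.0187 (log2 fold change) under library-size scaling and 0.0321 in limma on log2(FPKM + 1), and ranged from -0.0434 to 0.0186 with 1 library left out, above 0 without osatg5-1 replicate 1 or WT replicate 1. GDC T LOC_Os04g53230 came to 0.0204 and 0.0342 under the same settings and ranged from -0.0536 to 0.00692, above 0 without osatg5-1 replicate 1, WT replicate 2 or WT replicate 3. GDC P LOC_Os01g51410 ranged from -0.00867 to 0.0551, below 0 without osatg5-1 replicate 2 or WT replicate 1. All of these are smaller in size than the 0.06 standard error of these loci in the full comparison. From raw counts in place of FPKM, differences in share of the 10 members (osatg5-1 minus WT) were -0.515 percentage points for LOC_Os07g05820, 1.10 for LOC_Os01g51410 and 0.448 for LOC_Os10g37180, against -0.749, 0.635 and 1.17, since counts weight long loci more. At 67 to 129 counts, LOC_Os04g53210 is the member whose depth limits the comparison.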
